A study of Mus musculus with 109 samples.

Results

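The response of the mouse retina to interleukin 1 alpha (IL1A), injected alone, was read 2 days after injection against retinas injected with phosphate buffered saline (PBS). The 40 retinas analysed were those whose labels gave genotype WT, batch 1 and day 2 with either IL1A (9 retinas) or PBS (31 retinas), out of 109 retinas in the series. WT retinas were from C57BL/6J mice aged 2 to 4 months, in which vitreous was drained before 2 µL was injected, so the PBS eyes shared the drainage and the needle wound. IL1A was given at 0.1 µg/µL, and the species of the protein was not given in the sources used here. The 9 IL1A retinas came from 9 mice (4 female and 5 male, 5 left and 4 right eyes), and the 31 PBS retinas from 31 mice (15 female and 16 male, 20 left and 11 right eyes). PBS was given to the other eye of cytokine-injected mice, so that 7 of the 9 IL1A retinas had a PBS retina of the same mouse in the data and 2 did not. Retinas given TNF alone (0.05 µg/µL, 8 retinas) or IL1A+TNF (10 retinas), of the same genotype, age range, batch and day, entered the same fit and were compared with IL1A directly. Whole-retina poly(A) RNA was sequenced, and the deposited values were read counts per gene, which summed to 30014757 to 43039063 reads in PBS retinas and to 32032592 to 41179799 reads in IL1A retinas. Of the 19548 genes high enough to test, 21.4% were called different between IL1A and PBS at an FDR below 0.05, the FDR being the Benjamini-Hochberg adjusted p of limma.

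IL1A is an alarmin of the interleukin 1 family. It is released by damaged or activated cells and binds the receptor IL1R1, which pairs with the accessory protein IL1RAP and recruits the adaptor MYD88 and the IRAK kinases, and these release the transcription factor NF-kB and activate stress kinases. The targets include cytokines, chemokines, adhesion molecules of the vessel wall, acute phase proteins and the inhibitors that end the signal, among them the decoy receptor IL1R2, the antagonist IL1RN, the kinase-dead IRAK3 and the ubiquitin editor TNFAIP3. In the retina, endothelium, Müller glia, astrocytes and microglia are the cells best known to answer to interleukin 1.

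A kappaB motif, the site that NF-kB dimers bind, was looked for in RefSeq promoters of GRCm38.p6, which run from 250 bases before to 50 bases after each start. Of the called genes of NF-kB and its feedback inhibitors (12 higher and 1 lower), 10 had a promoter in that table and 7 held the motif, and 30 bases around it are given for 6 of them because these genes are both the effectors and the brakes of the signal. The capitals mark 1 match of the motif per gene. In Nfkb2, Rel and Tnip1 further matches overlap the capitals and run into lower-case bases. Nfkb2 and Tnfaip3 also held matches outside the bases given.
Nfkb2 (chr19:46304688-46304717, + strand): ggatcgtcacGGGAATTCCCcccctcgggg
Nfkbia (chr12:55492657-55492686, - strand): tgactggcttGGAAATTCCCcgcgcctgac
Nfkbie (chr17:45555584-45555613, + strand): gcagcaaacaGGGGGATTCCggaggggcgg
Rel (chr11:23771042-23771071, - strand): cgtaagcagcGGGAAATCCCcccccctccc
Tnip1 (chr11:54962979-54963008, - strand): ctccatcatgGGGGAATTCCcctcctgcct
Tnfaip3 (chr10:19015516-19015545, - strand): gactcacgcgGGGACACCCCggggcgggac
The first 5 belong to genes called higher after IL1A and the last to the NF-kB inhibitor that was called lower. The call for Nfkbia (FDR 0.028) was lost without replicate 1, 2, 5, 6 or 9, without 4 retinas rich in lens genes, and in a fit of the 7 mice that had an IL1A and a PBS retina (highest FDR 0.506). Nfkb2, Nfkbie, Tnip1 and Tnfaip3 were not called in that last fit either (FDR 0.117, 0.155, 0.0686 and 0.0781).

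Across the genome the kappaB motif was common outside the response as well. It was found on either strand in 8.46% of all 32851 promoters, in 10.4% of those of the 12988 tested genes matched by symbol, in 13% of those of genes called higher after IL1A, in 11.7% of those of genes higher by a log2 fold change of 1 or more, and in 10.8% of those of genes called lower. The AP-1 motif TGANTCA, bound by JUN and FOS dimers, was in 5.65% of the promoters of tested genes, in 8.46% of those of genes called higher, in 12.9% of those of genes higher by 1 or more, and in 4.6% of those of genes called lower. The STAT motif TTCNNNGAA was in 6.93%, 8.41%, 9.02% and 6.0% of the same sets in turn. These shares are descriptions of letters in a window, and binding was not measured. For 3 of the genes called higher, 250 bases before the start are printed below with the kappaB motif in capitals, since they were the named genes of smallest FDR that held it: Pik3cd, the leukocyte phosphoinositide kinase, Csf3r, the receptor of granulocyte colony-stimulating factor, and Egr2, an immediate early factor, in which 2 overlapping motifs share the capitals.
Pik3cd (chr4:149676090-149676339, - strand): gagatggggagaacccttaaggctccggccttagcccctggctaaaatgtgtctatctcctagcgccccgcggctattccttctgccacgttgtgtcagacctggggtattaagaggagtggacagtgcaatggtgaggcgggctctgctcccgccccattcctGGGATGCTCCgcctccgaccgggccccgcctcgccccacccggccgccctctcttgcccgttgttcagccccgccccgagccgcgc
Csf3r (chr4:126024409-126024658, + strand): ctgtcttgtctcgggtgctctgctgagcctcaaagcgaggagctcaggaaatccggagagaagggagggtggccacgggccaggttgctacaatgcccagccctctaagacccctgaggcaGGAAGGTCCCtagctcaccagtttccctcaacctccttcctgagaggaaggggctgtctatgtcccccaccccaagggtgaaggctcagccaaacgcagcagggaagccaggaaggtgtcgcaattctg
Egr2 (chr10:67535249-67535498, + strand): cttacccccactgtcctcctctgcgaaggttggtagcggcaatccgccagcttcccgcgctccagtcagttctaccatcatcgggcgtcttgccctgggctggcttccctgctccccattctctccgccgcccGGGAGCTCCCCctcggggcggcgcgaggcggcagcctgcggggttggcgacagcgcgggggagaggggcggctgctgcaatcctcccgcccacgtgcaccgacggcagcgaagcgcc

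The retinas were first checked for the tissue they were labelled as. Summed rod phototransduction genes made up 52410 to 78210 CPM (counts per 1000000 reads of the TMM-scaled total) in PBS retinas and 36100 to 63640 CPM in IL1A retinas, so all 40 were retina. Lens RNA was the main foreign signal. Summed over 19 lens genes it was under 1000 CPM in all but 4 of the 40 retinas, namely PBS replicates 4, 16 and 24 and IL1A replicate 2, which held 1002 to 4752 CPM. Of the 15 lens genes tested 0 were called (median log2 fold change 0.53). Pigment epithelium genes, summed over 12 markers, ran from 276.5 to 1422 CPM in PBS retinas and from 222 to 680.7 CPM in IL1A retinas, and 10 PBS retinas lay above the highest IL1A retina. Their part in the results was not tested beyond leaving those retinas out, and a count over a list that this moved by over 1.5 times is given beside it. IL1A replicate 8 moved furthest from PBS and replicate 7 least, and TNF replicate 6 held fewer leukocyte reads than any PBS retina, so counts that moved by over 1.5 times without 1 of these retinas are given both ways. Of 7 haemoglobin, erythrocyte and platelet genes tested 1 was higher (0 in the 7 mice with a PBS retina and an IL1A retina, below called the 7 pairs) and 0 lower.

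Of all genes tested, 12% were called higher in IL1A retinas and 9.45% lower. Size separated the directions. Of the genes called higher, 593 were at a log2 fold change of 1 or more, against 42 of those called lower at -1 or less, and 2830 of all called genes moved by less than 0.5 in size. The lower side also rested more on 1 retina: without IL1A replicate 8, 1907 genes were higher and 1103 lower. In the 7 mice with both an IL1A and a PBS retina, fitted alone with mouse as a fixed factor, 979 were higher and 253 lower, of 18227 tested, and 1190 of the 1232 were among the 4193 called with all retinas. Below, the 7 pairs means that smaller fit. Counts over gene lists, above and below, are to be read beside the 12% higher and 9.45% lower of all tested genes. Counts in the 7 pairs are to be read beside 979 higher and 253 lower of 18227. In only 20 genes (0.102% of those tested) did every IL1A retina lie above every PBS retina, and in 1 gene (0.00512%) every IL1A retina lay below. Values after ± are standard errors, and all retinas were bulk tissue, in which fewer cells of a type and less RNA per cell cannot be told apart. Retinas of a group came from separate mice, and whether mice shared a litter was not given in the sources used here.

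**Figure D1:**
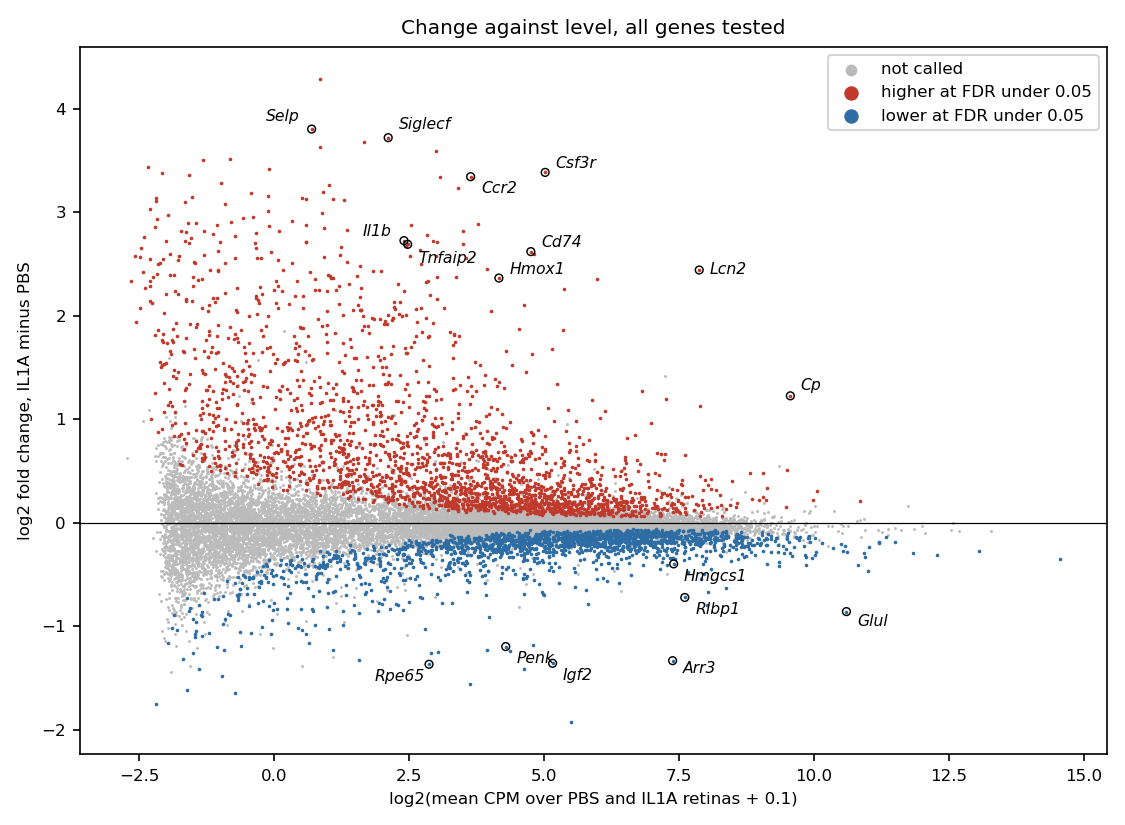
Log2 fold change of IL1A against PBS for each of the 19548 genes tested, against the log2 of its mean CPM over those retinas plus 0.1. Red points are higher and blue points lower at an FDR below 0.05, grey points were not called, and ringed genes carry their names; most of the large changes are increases of genes that were low in PBS retinas.

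Most of the genes with the smallest FDR are known from leukocytes. Siglecf, a sialic acid binding lectin of eosinophils, neutrophils and some macrophages, was measured at 0.0834 to 4.21 CPM (median 0.732) in PBS retinas and 3.23 to 24.9 CPM (median 14.3) in IL1A retinas (log2 fold change 3.72 ± 0.28, FDR 2.9e-15). Ncf1, a cytosolic subunit of the phagocyte NADPH oxidase, was at 2.25 to 11.6 CPM (median 4.72) in PBS retinas and 10.2 to 55.2 CPM (median 35.1) in IL1A retinas (log2 fold change 2.56 ± 0.20, FDR 9.3e-15). Ptprc, which encodes the pan-leukocyte antigen CD45, was at 2.92 to 16.8 CPM (median 6.88) in PBS retinas and 16.5 to 69.7 CPM (median 38.5) in IL1A retinas (log2 fold change 2.45 ± 0.20, FDR 3.1e-14). All 9 IL1A retinas lay above the PBS mean for these genes, although the highest PBS retina overlapped the lowest IL1A retina in each. Pik3cd was separated completely, with 7.84 to 13 CPM (median 9.4) in PBS retinas and 13.6 to 31.6 CPM (median 20.4) in IL1A retinas (log2 fold change 1.15 ± 0.09, FDR 1.3e-14), as was C5ar2, a receptor for the complement fragment C5a, with 0.135 to 1.53 CPM (median 0.69) in PBS retinas and 1.54 to 4.65 CPM (median 3.27) in IL1A retinas (log2 fold change 2.33 ± 0.18, FDR 9.3e-15). The pseudogene Gad1-ps also did not overlap (log2 fold change 2.42 ± 0.16, FDR 4.6e-17), but its reads may come from its near-identical parent Gad1, a gene that was lower (log2 fold change -0.27 ± 0.05, FDR 2.9e-05). Arhgap25 and Lcp2, a GTPase regulator and an adaptor of blood cells, were higher by 2.0 ± 0.16 and 1.83 ± 0.15. Gcnt1, which builds the glycans that selectins bind, was higher by 2.06 ± 0.17. The other genes without overlap included Vav1, Arl11, Naip5, Prex1, Sipa1, Stk10, Plxnd1, Fn1 and Cx3cr1. The largest increases belonged to an Ensembl gene with no symbol, ENSMUSG00000092215 (log2 fold change 4.29 ± 0.45, FDR 4.3e-11), to Selp, the P-selectin of activated endothelium and platelets (log2 fold change 3.8 ± 0.39, FDR 2.0e-11), and to the myeloid receptors Cd101 (log2 fold change 3.68 ± 0.34, FDR 1.1e-12) and Cd300lb (log2 fold change 3.63 ± 0.39, FDR 6.7e-11). The threshold was not reached in the 7 pairs by Gad1 (FDR 0.097).

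The largest decreases were of another kind. Spc25, a kinetochore gene that the mature retina also expresses, was at 21.2 to 74.7 CPM (median 54.3) in PBS retinas and 4.76 to 21.6 CPM (median 16) in IL1A retinas (log2 fold change -1.92 ± 0.22, FDR 6.0e-10), and the ranges touched at their ends. Igf2, a growth factor gene of choroidal and meningeal fibroblasts and of epithelia, was at 18.5 to 54 CPM (median 42.8) in PBS retinas and 7.15 to 23.5 CPM (median 17.7) in IL1A retinas (log2 fold change -1.36 ± 0.14, FDR 1.2e-11). Kcne1l, a potassium channel subunit, was the gene whose groups did not overlap, with 1.27 to 3.07 CPM (median 2.48) in PBS retinas and 0.578 to 1.17 CPM (median 1.07) in IL1A retinas (log2 fold change -1.23 ± 0.16, FDR 9.5e-09). Ephb1, an axon guidance receptor, fell from a median of 30.3 CPM in PBS retinas to 21.6 CPM in IL1A retinas (log2 fold change -0.55 ± 0.07, FDR 3.2e-08). Uckl1os is antisense to a coding gene, and the strand used in counting was not given in the sources used here, so its decrease (log2 fold change -0.54 ± 0.08, FDR 8.8e-08) cannot be told apart from that of its partner. Aldh7a1, a lysine-degrading dehydrogenase, changed by only -0.20 ± 0.03 with a small FDR (1.5e-08). Glb1l3 (log2 fold change -1.56 ± 0.30, FDR 5.1e-05), Rgr (log2 fold change -1.41 ± 0.37, FDR 0.0034) and Rpe65 (log2 fold change -1.37 ± 0.43, FDR 0.016), were among the largest decreases, and Rgr and Rpe65 are genes of the pigment epithelium and of the visual cycle. Without the 10 pigment-rich PBS retinas their log2 fold changes were -1.56, -1.26 and -1.23. Rpe65 missed the threshold in the 7 pairs alone (FDR 0.054). Rpe65 fell short of the threshold without IL1A replicate 1.

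**Figure D2:**
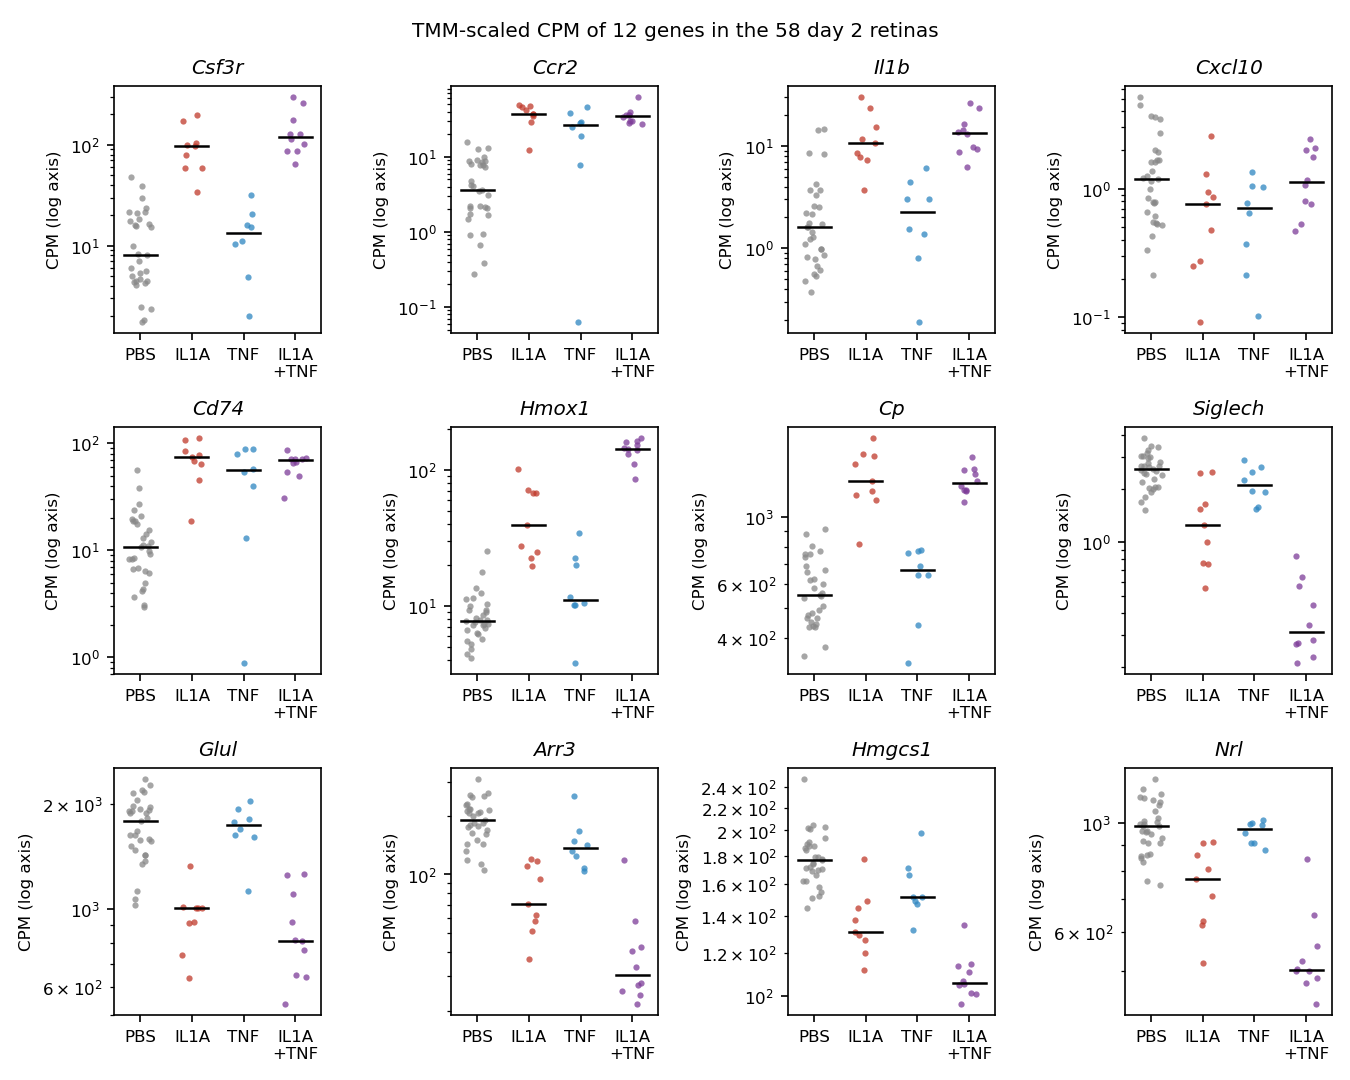
TMM-scaled CPM on a log axis for 12 genes in each of the 58 day 2 retinas. Points are retinas, black lines are group medians, and the groups are PBS, IL1A, TNF and IL1A+TNF; Csf3r, Ccr2 and Il1b are higher after IL1A, Glul, Arr3 and Hmgcs1 lower, and Hmox1 is highest in the IL1A+TNF retinas.

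Among the ligands of the family, Il1b was the 1 gene of 4 tested that rose, and Il1a itself was not called (median 0.10 on the log2 scale over the list). Il1b, the secreted sister cytokine made by myeloid cells, was at 0.372 to 14.8 CPM (median 1.6) in PBS retinas and 3.71 to 30.02 CPM (median 10.6) in IL1A retinas (log2 fold change 2.73 ± 0.33, FDR 2.4e-09). All 9 IL1A retinas lay above the PBS mean, but 5 PBS retinas lay above the lowest IL1A retina, and 6 of the 7 pairs were higher on the IL1A side. Il1a was at 0.486 to 2.23 CPM (median 1.0) in PBS retinas and 0.429 to 1.73 CPM (median 1.04) in IL1A retinas (log2 fold change 0.08 ± 0.16, FDR 0.79), and Il18 and Il33 were at log2 fold changes of -0.11 and 0.11 (FDR 0.30 and 0.56). Within the 7 pairs, no call was made for Il1b (FDR 0.078).

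The receptor side rose in part, 8 of 16 genes of the receptor complex and its adaptors being higher and 0 lower (median 0.11). The list also held Ticam2, an adaptor of Toll-like receptors, which was among the higher. Il1r1, the signalling receptor, was at 12.7 to 35.6 CPM (median 19.6) in PBS retinas and 19.2 to 35.5 CPM (median 28.6) in IL1A retinas (log2 fold change 0.43 ± 0.10, FDR 0.0014). Its partner Il1rap was at a log2 fold change of 0.16 ± 0.06 (FDR 0.058). Downstream of them, Irak4, the first kinase of the complex, rose from a median of 4.43 CPM in PBS retinas to 7.86 CPM in IL1A retinas (log2 fold change 0.84 ± 0.09, FDR 1.2e-10). Myd88, the shared adaptor, rose from a median of 12.8 CPM in PBS retinas to 18.6 CPM in IL1A retinas (log2 fold change 0.54 ± 0.13, FDR 0.0013). Map3k8, which links the complex to ERK, rose by 0.76 ± 0.12, and Irak2 by 0.35 ± 0.05. The IKK genes Chuk, Ikbkb and Ikbkg lay between -0.07 and 0.09 and none was called. The 7 pairs gave 4 of these genes as higher. Il1r1 and Myd88 were not called in the fit of the 7 pairs (FDR 0.25 for each).

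Some inhibitors of the pathway rose as well. Il1r2, the decoy that binds the ligand without signalling, was at 0.111 to 6.03 CPM (median 0.738) in PBS retinas and 1.36 to 15 CPM (median 5.07) in IL1A retinas (log2 fold change 2.67 ± 0.35, FDR 2.0e-08). Irak3, which blocks the release of IRAK1 and IRAK4 from the receptor, was at 1.39 to 4.94 CPM (median 2.68) in PBS retinas and 3.92 to 12.6 CPM (median 5.15) in IL1A retinas (log2 fold change 1.14 ± 0.15, FDR 2.3e-08). Sigirr and Il1rl1 rose by 0.58 ± 0.14 and 0.99 ± 0.24, whereas Il1rn, the receptor antagonist, was at 0.396 to 20.5 CPM (median 2.22) in PBS retinas and 1.72 to 11 CPM (median 4.89) in IL1A retinas with no call (log2 fold change 1.04 ± 0.42, FDR 0.072). In all, 4 of 6 genes of the list, Il1rl1 included, were higher (median 1.02), and 0 in the 7 pairs. When the fit was limited to the 7 pairs, the calls for Il1r2, Irak3, Sigirr and Il1rl1 were lost (FDR 0.053 to 0.33).

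**Figure D3:**
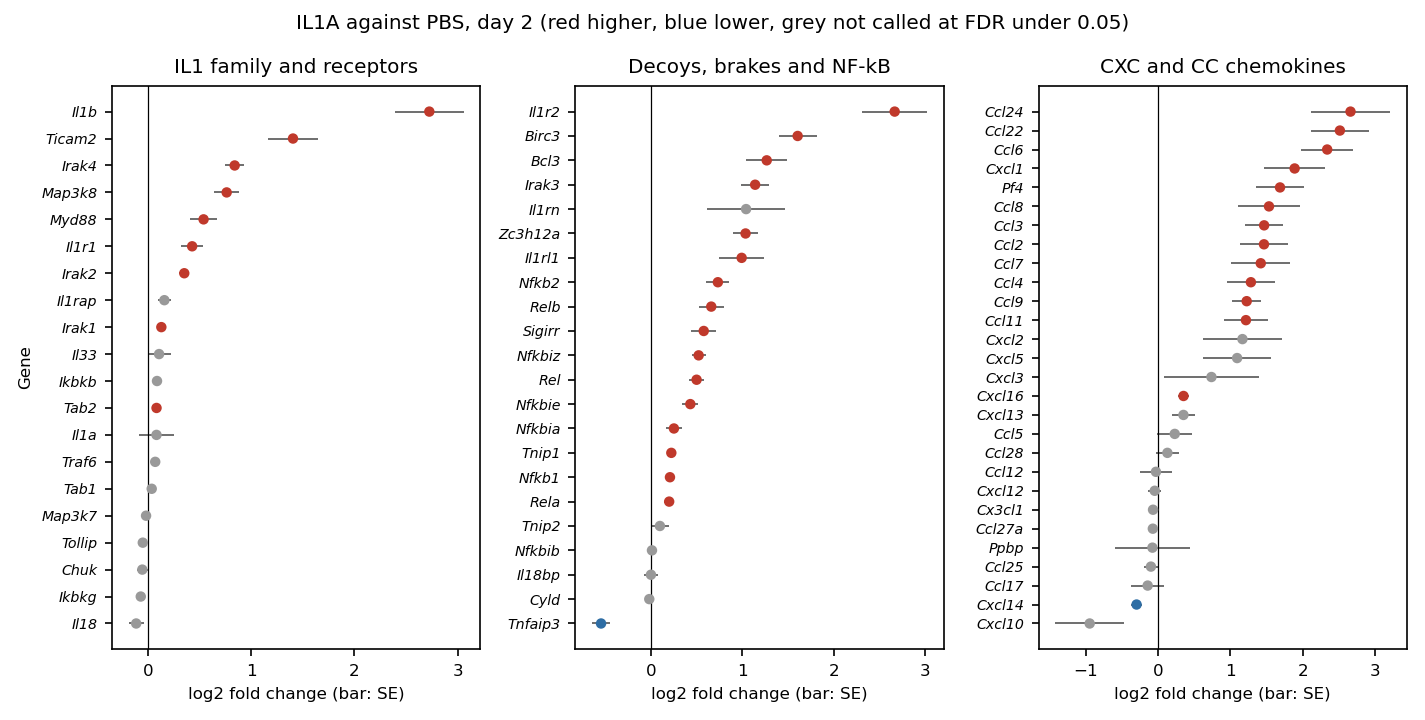
Log2 fold changes of IL1A against PBS with bars of 1 standard error, for interleukin 1 ligands, receptors and adaptors (left), inhibitors, Il1rl1 and NF-kB genes (centre) and chemokines (right). Red is higher, blue lower and grey not called at an FDR below 0.05; Il1b and Il1r2 lie far to the right, Tnfaip3 is the blue point in the centre, and Cxcl10 is a grey point to the left.

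NF-kB genes and their feedback inhibitors were higher in 12 of 16 and lower in 1 (median 0.34). Birc3, an inhibitor of apoptosis and NF-kB target, was at 0.779 to 6.22 CPM (median 2.05) in PBS retinas and 2.63 to 11 CPM (median 6.2) in IL1A retinas (log2 fold change 1.61 ± 0.21, FDR 1.1e-08). Bcl3, a nuclear co-activator of the p50 and p52 subunits, rose from a median of 9.25 CPM in PBS retinas to 18.8 CPM in IL1A retinas (log2 fold change 1.27 ± 0.22, FDR 1.3e-05). Zc3h12a, an RNase that degrades cytokine messages, rose from a median of 2.38 CPM in PBS retinas to 4.79 CPM in IL1A retinas (log2 fold change 1.04 ± 0.14, FDR 1.8e-08). The subunit genes Nfkb2 (0.73 ± 0.13), Relb (0.66 ± 0.14) and Rel (0.50 ± 0.08) rose, as did Rela (0.20 ± 0.05) and Nfkb1 (0.21 ± 0.04) by less. Tnfaip3, the A20 ubiquitin editor that restrains the pathway, went the other way, with 167 to 336 CPM (median 259.6) in PBS retinas and 102 to 235 CPM (median 183) in IL1A retinas (log2 fold change -0.54 ± 0.10, FDR 2.1e-05), and was lower on the IL1A side in 6 of the 7 pairs. Fitted on the 7 pairs, 2 of the list were higher and 0 lower. The threshold was not reached in the 7 pairs by Bcl3, Zc3h12a, Nfkb2, Relb, Rela, Nfkb1 and Tnfaip3 (FDR 0.078 to 0.30).

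Tnf itself rose after IL1A, at low counts. It was at 0 to 0.419 CPM (median 0.131) in PBS retinas and 0.278 to 1.05 CPM (median 0.523) in IL1A retinas (log2 fold change 1.89 ± 0.25, FDR 2.4e-08). Its receptors Tnfrsf1b (log2 fold change 1.4 ± 0.18, FDR 6.6e-09) and Tnfrsf1a (log2 fold change 0.63 ± 0.12, FDR 3.9e-05) rose too, from medians of 7.32 and 25.7 CPM to 19 and 38.5 CPM. Tnfaip2, an NF-kB target of endothelium and myeloid cells, was at 0.446 to 7.45 CPM (median 2.08) in PBS retinas and 5.5 to 26 CPM (median 14.1) in IL1A retinas (log2 fold change 2.69 ± 0.25, FDR 9.8e-13). Ltb, lymphotoxin beta, was at 0 to 0.547 CPM (median 0.214) in PBS retinas and 0.48 to 2.73 CPM (median 1.1) in IL1A retinas (log2 fold change 2.77 ± 0.28, FDR 1.5e-11). Of 13 genes for TNF, its receptors and adaptors, 10 were higher and 0 lower, with 5 in the 7 pairs. For the necroptosis and caspase-8 genes the counts were 7 and 0 of 14, with Ripk3 (log2 fold change 1.24 ± 0.24, FDR 7.2e-05) and Casp8 (log2 fold change 0.89 ± 0.13, FDR 3.0e-07) among the higher and Ripk1 at 0.27 ± 0.12 (FDR 0.11), and the 7 pairs gave 2. Tnfrsf1a and Ripk3 missed the threshold in the 7 pairs alone (FDR 0.094 to 0.23).

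Genes of the gp130 and STAT3 pathway, which relays interleukin 6 and its relatives, were split between large and small changes (11 of 21 higher, 1 lower, median 0.20). Il6ra, the interleukin 6 receptor subunit of myeloid cells, was at 0.743 to 3.67 CPM (median 1.88) in PBS retinas and 2.88 to 11.4 CPM (median 7.57) in IL1A retinas (log2 fold change 1.9 ± 0.19, FDR 3.8e-12), while Il6 was too low to test. Socs3, the feedback inhibitor of STAT3, was at 6.52 to 68.9 CPM (median 24.2) in PBS retinas and 25.6 to 107 CPM (median 34.5) in IL1A retinas (log2 fold change 0.89 ± 0.23, FDR 0.0023). Stat3 was at 129 to 319.8 CPM (median 215) in PBS retinas and 257 to 383 CPM (median 289.9) in IL1A retinas (log2 fold change 0.45 ± 0.10, FDR 3.2e-04). The groups overlapped in both, and the IL1A eye was the higher in 4 of the 7 pairs for Socs3 and in 4 for Stat3. Cntfr, the neuronal receptor of ciliary neurotrophic factor, fell (log2 fold change -0.28 ± 0.05, FDR 3.0e-05). Without replicate 8 the list held 7 higher genes, and in the 7 pairs 3. Immediate early and AP-1 genes gave 8 higher and 0 lower of 24 (3 higher in the 7 pairs), while Fos (-0.04, FDR 0.88) and Atf3 (0.35, FDR 0.23) were not called. Egr2 was at 0.273 to 2.79 CPM (median 1.15) in PBS retinas and 2.92 to 11.3 CPM (median 5.11) in IL1A retinas (log2 fold change 2.29 ± 0.21, FDR 7.2e-13), without overlap, and Batf, an AP-1 factor of immune cells, rose from a median of 0.0947 CPM in PBS retinas to 0.552 CPM in IL1A retinas (log2 fold change 2.17 ± 0.35, FDR 1.8e-06). By themselves the 7 pairs did not give a call for Socs3, Stat3 and Cntfr (FDR 0.11 to 0.37).

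CC chemokines, which draw monocytes and other leukocytes, were higher in 10 of 16 tested (none lower, median 1.25), all of the higher ones at a median below 20 CPM in both groups. Ccl6 was at 0.743 to 12.4 CPM (median 2.66) in PBS retinas and 2.05 to 38.9 CPM (median 18.6) in IL1A retinas (log2 fold change 2.34 ± 0.36, FDR 8.2e-07). Ccl9 was at 3.26 to 11.4 CPM (median 5.2) in PBS retinas and 4.87 to 23 CPM (median 13.3) in IL1A retinas (log2 fold change 1.22 ± 0.20, FDR 2.4e-06). Ccl2, the main monocyte chemokine, was at 0.223 to 9.09 CPM (median 0.952) in PBS retinas and 1.72 to 6.7 CPM (median 3.67) in IL1A retinas (log2 fold change 1.46 ± 0.33, FDR 6.4e-04), with 4 of 7 pairs higher on the IL1A side, so the groups overlapped and the pairs were divided. Ccl22 (log2 fold change 2.51 ± 0.40, FDR 1.3e-06) and Ccl3 (log2 fold change 1.46 ± 0.27, FDR 2.1e-05) also rose, and Ccl5 did not reach the threshold (log2 fold change 0.23 ± 0.24, FDR 0.58). With the filter of at least 1 CPM in 9 retinas 4 of them remained to be called, and the 7 pairs gave 3. Within the 7 pairs, no call was made for Ccl2 and Ccl3 (FDR 0.37 to 0.56). The call for Ccl2 was lost with edgeR or with DESeq2.

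Of the CXC chemokines only a few moved (3 of 12 higher, 1 lower, and 1 higher in the 7 pairs). Cxcl1, a neutrophil chemokine, was at 0.0495 to 9.55 CPM (median 0.283) in PBS retinas and 0.53 to 3.89 CPM (median 1.81) in IL1A retinas (log2 fold change 1.89 ± 0.42, FDR 4.9e-04), and Pf4, platelet factor 4, rose by 1.68 ± 0.33. Cxcl10, the interferon-induced chemokine, was at 0.213 to 5.16 CPM (median 1.18) in PBS retinas and 0.0922 to 2.57 CPM (median 0.757) in IL1A retinas with no call (log2 fold change -0.94 ± 0.48, FDR 0.16), and Cxcl2 at 1.17 ± 0.54 (FDR 0.12). Cxcl14, a chemokine of epithelia and neurons, fell (log2 fold change -0.30 ± 0.07, FDR 0.0021). With sample quality weights 6 were higher. Their receptors changed by more in log2 units: Cxcr2 was at 0.0743 to 16.5 CPM (median 2.1) in PBS retinas and 9.44 to 47.1 CPM (median 20.3) in IL1A retinas (log2 fold change 3.59 ± 0.40, FDR 2.0e-10). Ccr2 was at 0.278 to 16 CPM (median 3.63) in PBS retinas and 12.4 to 49.7 CPM (median 37.4) in IL1A retinas (log2 fold change 3.34 ± 0.47, FDR 9.4e-08). Cxcr4 was at 0.556 to 5.66 CPM (median 2.13) in PBS retinas and 5.15 to 23 CPM (median 16.4) in IL1A retinas (log2 fold change 2.68 ± 0.22, FDR 7.8e-14). The lowest IL1A retina overlapped the highest PBS retinas in all of these receptors. In total 9 of 16 chemokine receptors were higher and none lower (median 1.03). When the fit was limited to the 7 pairs, the calls for Cxcl1, Pf4 and Cxcl14 were lost (FDR 0.068 to 0.70). Cxcl1 lost the call with edgeR or with DESeq2.

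All 10 pan-leukocyte markers rose (median 1.89), and all were called in the 7 pairs as well. Summed over the list they made up 34.14 to 142.1 CPM in PBS retinas and 105.4 to 392.5 CPM in IL1A retinas, so the groups overlapped only at their ends. Tyrobp, the adaptor of myeloid receptors, was at 2.2 to 10.9 CPM (median 4.5) in PBS retinas and 7.7 to 35.9 CPM (median 22.1) in IL1A retinas (log2 fold change 2.08 ± 0.22, FDR 3.6e-11), and Itgb2, the common chain of leukocyte integrins, rose from a median of 5.26 CPM in PBS retinas to 19.6 CPM in IL1A retinas (log2 fold change 1.85 ± 0.21, FDR 2.5e-10).

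Neutrophil markers rose in 10 of 13 tested and fell in 1 (median 1.86). Csf3r was at 1.76 to 48.2 CPM (median 8.15) in PBS retinas and 34 to 196 CPM (median 96.7) in IL1A retinas (log2 fold change 3.38 ± 0.30, FDR 3.8e-13), and S100a8 and S100a9, the subunits of calprotectin, at medians of 20.1 and 21.6 CPM in IL1A retinas against 2.37 and 3.28 CPM in PBS retinas (log2 fold changes 3.34 ± 0.41 and 3.23 ± 0.40). Trem1, an amplifier of myeloid activation, rose by 3.0 ± 0.37. Genes of granule proteins were divided. Mmp8 and Ltf were called higher at low levels, with medians of 0.323 and 0.547 CPM in IL1A retinas against 0.133 and 0.251 CPM in PBS retinas (FDR 0.014 and 0.044). Elane and Mpo, at no more than 0.0496 and 0.054 CPM in any IL1A retina, were too low to test, as was Ly6g, the surface marker by which mouse neutrophils are defined (up to 0.0976 CPM). Camp and Ngp, genes of the secondary granules, were at log2 fold changes of -0.06 and -0.0035 (FDR 0.91 and 0.997), with at most 0.649 and 0.369 CPM in an IL1A retina. Hdc, which also marks histaminergic cells, fell (log2 fold change -0.50 ± 0.14, FDR 0.0058). The count of higher markers was 6 without replicate 1, 6 without replicate 8, 6 with edgeR, 5 with DESeq2, 5 with the 1 CPM filter and 4 in the 7 pairs. Trem1, Mmp8 and Ltf missed the threshold in the 7 pairs alone (FDR 0.12 to 0.23). Mmp8 fell short of the threshold without IL1A replicate 1 or 8, with edgeR, with DESeq2 or without the lens-rich retinas. Ltf lost the call without IL1A replicate 1, 2, 3, 4, 5, 6, 8 or 9, with no filter on low counts, with edgeR, with DESeq2, without the sex term, without the replicate block, in a fit of IL1A and PBS retinas alone or without the PBS partner eyes.

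Monocyte and macrophage markers rose in 12 of 16, with none lower (median 1.46), and the 7 pairs gave 9 higher and 1 lower. The lower gene there was Vcan, a matrix proteoglycan, at 12.1 to 50.5 CPM (median 28.3) in PBS retinas and 5.43 to 28.4 CPM (median 21.4) in IL1A retinas with no call in the fit of all retinas (log2 fold change -0.49 ± 0.26, FDR 0.19). Chil3, a secreted chitinase-like protein of monocytes and activated macrophages, was at 0 to 1.97 CPM (median 0.41) in PBS retinas and 0.606 to 9.67 CPM (median 3.57) in IL1A retinas (log2 fold change 3.14 ± 0.48, FDR 6.9e-07). Arg1, the arginase of alternatively activated macrophages, rose from a median of 2.81 CPM in PBS retinas to 19.4 CPM in IL1A retinas (log2 fold change 2.71 ± 0.30, FDR 9.7e-11). Fn1, fibronectin, rose from a median of 112 CPM in PBS retinas to 244 CPM in IL1A retinas (log2 fold change 1.2 ± 0.14, FDR 5.2e-10), without overlap between the groups. Ly6c2, a defining gene of inflammatory monocytes, was at 0 to 0.5261 CPM (median 0.115) in PBS retinas and 0.0252 to 0.486 CPM (median 0.184) in IL1A retinas with no call (log2 fold change 0.78 ± 0.48, FDR 0.28). Genes of colony-stimulating factors and their receptors were higher in 5 of 7, Csf2rb by 2.38 ± 0.28 and Csf1 by 0.92 ± 0.13, with Csf3 at -0.09 (FDR 0.87).

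Lymphoid and eosinophil markers were scarce. Of 12 T and NK cell markers only 4 were high enough to test and none was called, Cd4 being at 0.34 ± 0.20 (FDR 0.25) and Cd3e at no more than 0.27 CPM in an IL1A retina. Of 7 B cell markers 3 were tested and Cd79b alone was higher (log2 fold change 0.94 ± 0.35, FDR 0.043). For eosinophils, which also carry Siglecf, and mast cells, 1 of 11 markers was tested (Kit, 0.05, FDR 0.58), and the eosinophil granule gene Epx did not pass 0.236 CPM. Among the sialic acid binding lectins 6 of 8 rose and 1 fell (5 and 0 in the 7 pairs): Cd33 rose by 2.0 ± 0.19, Siglece by 1.5 ± 0.15, and Siglech, a marker of resting microglia, went from a median of 2.58 to 1.24 CPM (log2 fold change -0.99 ± 0.17, FDR 1.0e-05). Siglech was not called in the fit of the 7 pairs (FDR 0.27). Cd79b fell short of the threshold without IL1A replicate 1, 2, 3, 4, 5, 6, 8 or 9, with no filter on low counts, with edgeR, with DESeq2, with side as an added term, without the PBS partner eyes or without the lens-rich retinas.

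All 16 tested Toll-like receptor genes and co-receptors were higher (median 1.23), and the 7 pairs gave 11. Tlr13, the sensor of bacterial ribosomal RNA, was at 1.07 to 8.01 CPM (median 2.76) in PBS retinas and 4.85 to 19.2 CPM (median 10.4) in IL1A retinas (log2 fold change 2.01 ± 0.21, FDR 3.8e-11). Unc93b1, the chaperone of endosomal receptors, was at 3.49 to 12.8 CPM (median 5.99) in PBS retinas and 8.41 to 32.4 CPM (median 22.4) in IL1A retinas (log2 fold change 1.74 ± 0.17, FDR 2.8e-12). Tlr2 was at 1.36 to 7.75 CPM (median 2.93) in PBS retinas and 3.08 to 9.18 CPM (median 6.07) in IL1A retinas (log2 fold change 1.03 ± 0.17, FDR 5.0e-06). The smallest rise was that of Tlr3, which neurons and glia also express (log2 fold change 0.27 ± 0.08, FDR 0.014). Inflammasome genes were higher in 14 of 17 and lower in 0 (median 1.51): Nlrp3 rose from a median of 0.683 CPM in PBS retinas to 3.18 CPM in IL1A retinas (log2 fold change 2.07 ± 0.20, FDR 3.5e-12), Casp1, which cleaves pro-interleukin 1 beta, from a median of 0.533 CPM in PBS retinas to 1.39 CPM in IL1A retinas (log2 fold change 1.32 ± 0.17, FDR 8.4e-09), and the pore protein gene Gsdmd from a median of 1.99 CPM in PBS retinas to 4.47 CPM in IL1A retinas (log2 fold change 1.11 ± 0.13, FDR 1.7e-09). Reads of Naip5 and Nlrp1b may be shared with near-identical paralogs. The threshold was not reached in the 7 pairs by Tlr2 and Tlr3 (FDR 0.065 to 0.20).

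Complement genes were higher in 12 of 20 tested and lower in 0 (median 0.67), with 7 in the 7 pairs. C3, the central component, was at 20.1 to 221 CPM (median 80.2) in PBS retinas and 36.3 to 295 CPM (median 207) in IL1A retinas (log2 fold change 1.27 ± 0.37, FDR 0.0092), and the ranges overlapped over most of their length. The C1q genes, made by microglia and macrophages, moved together: C1qa was at 7.03 to 19.8 CPM (median 12.2) in PBS retinas and 13.5 to 29.5 CPM (median 25.7) in IL1A retinas (log2 fold change 1.03 ± 0.13, FDR 6.8e-09), and C1qb and C1qc rose by 1.11 ± 0.14 and 0.89 ± 0.12. The receptor genes C3ar1 and C5ar1 rose by 1.8 ± 0.19 and 1.98 ± 0.27. C4b, which glia make in large amounts after injury, was not called (log2 fold change -0.09 ± 0.12, FDR 0.67). C3 missed the threshold in the 7 pairs alone (FDR 0.059).

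Acute phase genes rose in 10 of 17 and fell in 0 (median 0.98; 6 in the 7 pairs). Cp, the ceruloplasmin ferroxidase, was at 348 to 911 CPM (median 552) in PBS retinas and 819 to 1821 CPM (median 1315) in IL1A retinas (log2 fold change 1.23 ± 0.13, FDR 4.3e-11), and only the ends of the ranges met. Steap4, a metalloreductase of inflamed tissue, was at 5.33 to 116 CPM (median 17.5) in PBS retinas and 38.4 to 151 CPM (median 86.9) in IL1A retinas (log2 fold change 2.26 ± 0.26, FDR 8.1e-10). Hp, haptoglobin, rose from a median of 0.819 CPM in PBS retinas to 4.72 CPM in IL1A retinas (log2 fold change 2.52 ± 0.40, FDR 1.7e-06). Lrg1, a modulator of TGF-beta signalling in vessels, rose from a median of 1.89 CPM in PBS retinas to 4.28 CPM in IL1A retinas (log2 fold change 1.48 ± 0.30, FDR 1.6e-04). Serpina3n, often the strongest acute phase gene of reactive glia, was at 116 to 1910.4 CPM (median 541) in PBS retinas and 301 to 1438 CPM (median 825) in IL1A retinas with no call (log2 fold change 0.55 ± 0.39, FDR 0.35). Genes of iron handling were higher in 7 of 17, with Hmox1, the haem oxygenase, at 4.16 to 25.6 CPM (median 7.82) in PBS retinas and 19.8 to 101 CPM (median 39.1) in IL1A retinas (log2 fold change 2.36 ± 0.21, FDR 3.6e-13) and the ferritin genes Ftl1 and Fth1 higher by 0.66 ± 0.11 and 0.40 ± 0.07, while Tfrc, the transferrin receptor, was at -0.14 (FDR 0.11). Wider antioxidant genes gave 7 of 18 higher and none lower (4 in the 7 pairs), Nqo1 being at 0.03 (FDR 0.91). By themselves the 7 pairs did not give a call for Lrg1 (FDR 0.12).

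MHC class II genes rose in 11 of 13 and fell in 1 (median 1.44). Cd74, the invariant chain, was at 2.98 to 56.5 CPM (median 10.7) in PBS retinas and 18.6 to 112 CPM (median 74.6) in IL1A retinas (log2 fold change 2.62 ± 0.39, FDR 4.3e-07). H2-Aa was at 1.0 to 28.4 CPM (median 4.39) in PBS retinas and 8.91 to 62.3 CPM (median 41.2) in IL1A retinas (log2 fold change 2.89 ± 0.42, FDR 1.6e-07). H2-Ab1 was at 1.28 to 21.6 CPM (median 4.42) in PBS retinas and 8.41 to 47.1 CPM (median 35.4) in IL1A retinas (log2 fold change 2.69 ± 0.33, FDR 2.5e-09). The groups overlapped in all of these, as some PBS retinas reached the level of the lower IL1A retinas. Ciita, the master regulator of the class, rose from a median of 3.02 CPM in PBS retinas to 6.32 CPM in IL1A retinas (log2 fold change 1.04 ± 0.12, FDR 1.1e-09), and Rfx5, its promoter-binding partner, was the gene that fell (log2 fold change -0.17 ± 0.05, FDR 0.0066). Class I genes rose in 18 of 22 with none lower (median 0.63), and in the 7 pairs 7 did. H2-D1 was at 48.5 to 235 CPM (median 92.4) in PBS retinas and 132 to 403 CPM (median 182) in IL1A retinas (log2 fold change 0.97 ± 0.18, FDR 3.0e-05). Tap1, the peptide transporter, rose from a median of 8.12 CPM in PBS retinas to 21.2 CPM in IL1A retinas (log2 fold change 1.42 ± 0.36, FDR 0.0019). Nlrc5, the class I regulator, rose from a median of 6.69 CPM in PBS retinas to 21 CPM in IL1A retinas (log2 fold change 1.56 ± 0.36, FDR 7.8e-04). The H2 genes share sequence, and how the counting split reads between them is not known here. Within the 7 pairs, no call was made for Rfx5, Tap1 and Nlrc5 (FDR 0.13 for each).

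Interferon-stimulated genes were less uniform, with 15 of 31 higher and 0 lower (median 0.61). Ifi44 (log2 fold change 1.37 ± 0.26, FDR 3.8e-05) and Trim30a (log2 fold change 0.99 ± 0.17, FDR 5.0e-06) rose, as did Irf9, a partner of STAT2 (0.76 ± 0.19). Isg15 (0.21, FDR 0.50), Rsad2 (0.27, FDR 0.56) and Ifit3 (0.12, FDR 0.76), which are usually among the strongest interferon targets, were not called. The count depended on the retinas and the fit: 7 were higher without replicate 8, 9 without the lens-rich retinas, 23 in a fit of IL1A and PBS retinas alone, and 4 in the 7 pairs. The summed list ran from 364.4 to 1066 CPM in PBS retinas and from 512.2 to 1881 CPM in IL1A retinas. Interferon-gamma induced GTPases and Irf1 gave 6 of 15 higher, with Irgm1 at 7.98 to 55 CPM (median 13.1) in PBS retinas and 14.6 to 104 CPM (median 26.9) in IL1A retinas (log2 fold change 0.97 ± 0.31, FDR 0.018), but 3 without replicate 8, 0 in the 7 pairs and 10 with edgeR and with DESeq2. Irf9 and Irgm1 were not called in the fit of the 7 pairs (FDR 0.15 to 0.20). Irgm1 fell short of the threshold without IL1A replicate 8 or with no filter on low counts.

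At the vessel wall, adhesion genes were higher in 11 of 18 and lower in 2 (median 0.42). In the 7 pairs 5 were higher and 1 lower, and 1 was lower without replicate 7 or with the 1 CPM filter. Sele, E-selectin, was at 0.0248 to 2.38 CPM (median 0.372) in PBS retinas and 0.338 to 3.98 CPM (median 1.61) in IL1A retinas (log2 fold change 1.9 ± 0.34, FDR 1.9e-05). Icam1 was at 1.42 to 10.6 CPM (median 3.76) in PBS retinas and 3.28 to 8.93 CPM (median 7.77) in IL1A retinas (log2 fold change 0.78 ± 0.19, FDR 0.0020). Vcam1 was at 21.2 to 74.1 CPM (median 35.5) in PBS retinas and 36.1 to 67.4 CPM (median 54.3) in IL1A retinas (log2 fold change 0.60 ± 0.14, FDR 0.0012). Each overlapped with PBS, and in 4, 4 and 5 of the 7 pairs, respectively, the IL1A eye was the higher. Jam2, a junctional adhesion molecule, fell slightly (log2 fold change -0.15 ± 0.04, FDR 0.0030). Barrier genes gave 10 higher and 3 lower of 25 (median 0.05), and 7 higher and 0 lower in the 7 pairs. Cldn5, the tight junction claudin of retinal vessels, was at 8.17 to 19.4 CPM (median 11.2) in PBS retinas and 15.1 to 20.4 CPM (median 18.4) in IL1A retinas (log2 fold change 0.67 ± 0.11, FDR 2.8e-06), whereas Mfsd2a, the lipid transporter that marks barrier endothelium, was at 1.85 to 4.51 CPM (median 3.11) in PBS retinas and 1.52 to 2.85 CPM (median 2.01) in IL1A retinas (log2 fold change -0.53 ± 0.14, FDR 0.0039). The angiogenic receptors split, Kdr rising by 0.42 ± 0.08 and Flt1 falling (log2 fold change -0.22 ± 0.05, FDR 0.0012). Of 10 endothelial markers 9 were higher and 1 lower (median 0.43; 6 and 0 in the 7 pairs), and the part of that shift in the adhesion and barrier counts was not tested. Pericyte and smooth muscle markers gave 2 higher of 10, but 5 without the pigment-rich PBS retinas and 5 in the 7 pairs. The threshold was not reached in the 7 pairs by Sele, Icam1, Vcam1, Jam2, Mfsd2a and Flt1 (FDR 0.14 to 0.52).

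Matrix proteases and their inhibitors rose in 15 of 26 with none lower (median 0.42), and in 5 in the 7 pairs. Mmp9, the gelatinase of activated leukocytes and endothelium, was at 15.9 to 46.5 CPM (median 21.9) in PBS retinas and 28.9 to 160.2 CPM (median 79.3) in IL1A retinas (log2 fold change 1.68 ± 0.16, FDR 9.7e-13). Timp1, its inhibitor, was at 2.7 to 27.8 CPM (median 8.19) in PBS retinas and 23.7 to 57.2 CPM (median 31.8) in IL1A retinas (log2 fold change 2.05 ± 0.22, FDR 4.3e-11). Prostaglandin and nitric oxide genes gave 8 higher and 1 lower of 16 (4 and 0 in the 7 pairs), with Ptgs1, the constitutive cyclooxygenase, rising (log2 fold change 1.69 ± 0.16, FDR 7.6e-13). Ptgs2, the inducible enzyme, was at 0.60 to 15.2 CPM (median 1.49) in PBS retinas and 1.48 to 9.18 CPM (median 4.32) in IL1A retinas (log2 fold change 1.11 ± 0.28, FDR 0.0023). Ptgs2 missed the threshold in the 7 pairs alone (FDR 0.30). Ptgs2 fell short of the threshold with edgeR or with DESeq2.

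Gene lists of Müller glia, the radial glia of the retina, gave a divided picture, and which cells the changes came from was not measured. Reactive genes were higher in 15 of 24 and lower in 1 (median 0.58). Cd44, a hyaluronan receptor at glial end feet, was at 24.6 to 116 CPM (median 50.6) in PBS retinas and 81.6 to 176 CPM (median 103) in IL1A retinas (log2 fold change 1.08 ± 0.16, FDR 4.9e-07). Edn2, an endothelin induced in stressed photoreceptors, was at 16.6 to 104 CPM (median 53.3) in PBS retinas and 75.3 to 171 CPM (median 90.9) in IL1A retinas (log2 fold change 1.01 ± 0.19, FDR 2.4e-05). Fgf2 was at 8.97 to 42.7 CPM (median 23.1) in PBS retinas and 24.5 to 63.5 CPM (median 43.5) in IL1A retinas (log2 fold change 0.87 ± 0.16, FDR 1.8e-05). Mt1 and Mt2, the metallothioneins, rose by 0.74 ± 0.15 and 1.09 ± 0.17. The 7 pairs gave 4 higher. The whole endothelin list gave 4 higher and 1 lower of 7 (2 and 0 in the 7 pairs), and astrocyte markers 3 higher of 6 (0). Within the 7 pairs, no call was made for Cd44 and Fgf2 (FDR 0.054 to 0.088).

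Homeostatic Müller genes went both ways, 6 higher and 8 lower of 25 (median -0.04). Glul, which turns glutamate into glutamine, was at 1031 to 2357 CPM (median 1786) in PBS retinas and 636 to 1330.1 CPM (median 1008) in IL1A retinas (log2 fold change -0.86 ± 0.11, FDR 2.6e-08). Rlbp1, the retinoid binding protein CRALBP of Müller cells and pigment epithelium, was at 145 to 282 CPM (median 216) in PBS retinas and 78.1 to 156 CPM (median 138) in IL1A retinas (log2 fold change -0.72 ± 0.10, FDR 4.8e-08). Neither was higher on the IL1A side in any of the 7 pairs. Clu (log2 fold change -0.33 ± 0.09, FDR 0.0058) and Car2 (log2 fold change -0.32 ± 0.06, FDR 3.7e-05) fell as well, while Kcnj10, the glial potassium channel, rose (0.24 ± 0.07). Crym, a thyroid hormone binding protein, was at 50.6 to 125 CPM (median 82.2) in PBS retinas and 125 to 209 CPM (median 144) in IL1A retinas (log2 fold change 0.85 ± 0.12, FDR 1.2e-07), with the ranges meeting at their ends. Slc1a3, the glutamate transporter, and Aqp4, the water channel, were at 0.12 and -0.04 (FDR 0.19 and 0.77). Without the pigment-rich PBS retinas 5 of the list were lower, and the 7 pairs gave 2 higher and 3 lower. Clu and Car2 were not called in the fit of the 7 pairs (FDR 0.073 to 0.21). Clu fell short of the threshold without the pigment-rich PBS retinas. Kcnj10 lost the call without the PBS partner eyes.

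Microglial genes moved in opposite ways within the homeostatic list, of which 8 of 15 were higher and 3 lower (median 0.26; 8 and 0 in the 7 pairs). Cx3cr1, the fractalkine receptor, was at 8.52 to 14.5 CPM (median 11.9) in PBS retinas and 18.8 to 24.7 CPM (median 20.7) in IL1A retinas (log2 fold change 0.86 ± 0.10, FDR 2.0e-09) without overlap, and Csf1r at 17.5 to 36.9 CPM (median 27.1) in PBS retinas and 32.9 to 73.2 CPM (median 59.1) in IL1A retinas (log2 fold change 1.11 ± 0.13, FDR 4.5e-10), and both are also expressed by monocytes. Tmem119 and Sall1, more particular to microglia, were at 0.13 and -0.04 (FDR 0.50 and 0.86), P2ry12 rose by 0.35 ± 0.08, and Siglech fell as given above. Genes of disease-associated microglia were higher in 13 of 20 with none lower (median 0.50): Itgax was at 0.52 to 4.38 CPM (median 1.55) in PBS retinas and 2.7 to 14.1 CPM (median 8.84) in IL1A retinas (log2 fold change 2.44 ± 0.27, FDR 1.7e-10). Clec7a rose from a median of 3.53 CPM in PBS retinas to 14.6 CPM in IL1A retinas (log2 fold change 1.94 ± 0.21, FDR 1.4e-10). Trem2 rose from a median of 2.47 CPM in PBS retinas to 6.8 CPM in IL1A retinas (log2 fold change 1.33 ± 0.18, FDR 5.2e-08), whereas Apoe (0.30, FDR 0.14) and Gpnmb (0.11, FDR 0.90) were not called. Among the higher genes of this list, Tyrobp was also counted as a pan-leukocyte marker and Ccl6 as a CC chemokine. The part of leukocytes other than microglia in these calls was not tested.

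**Figure D4:**
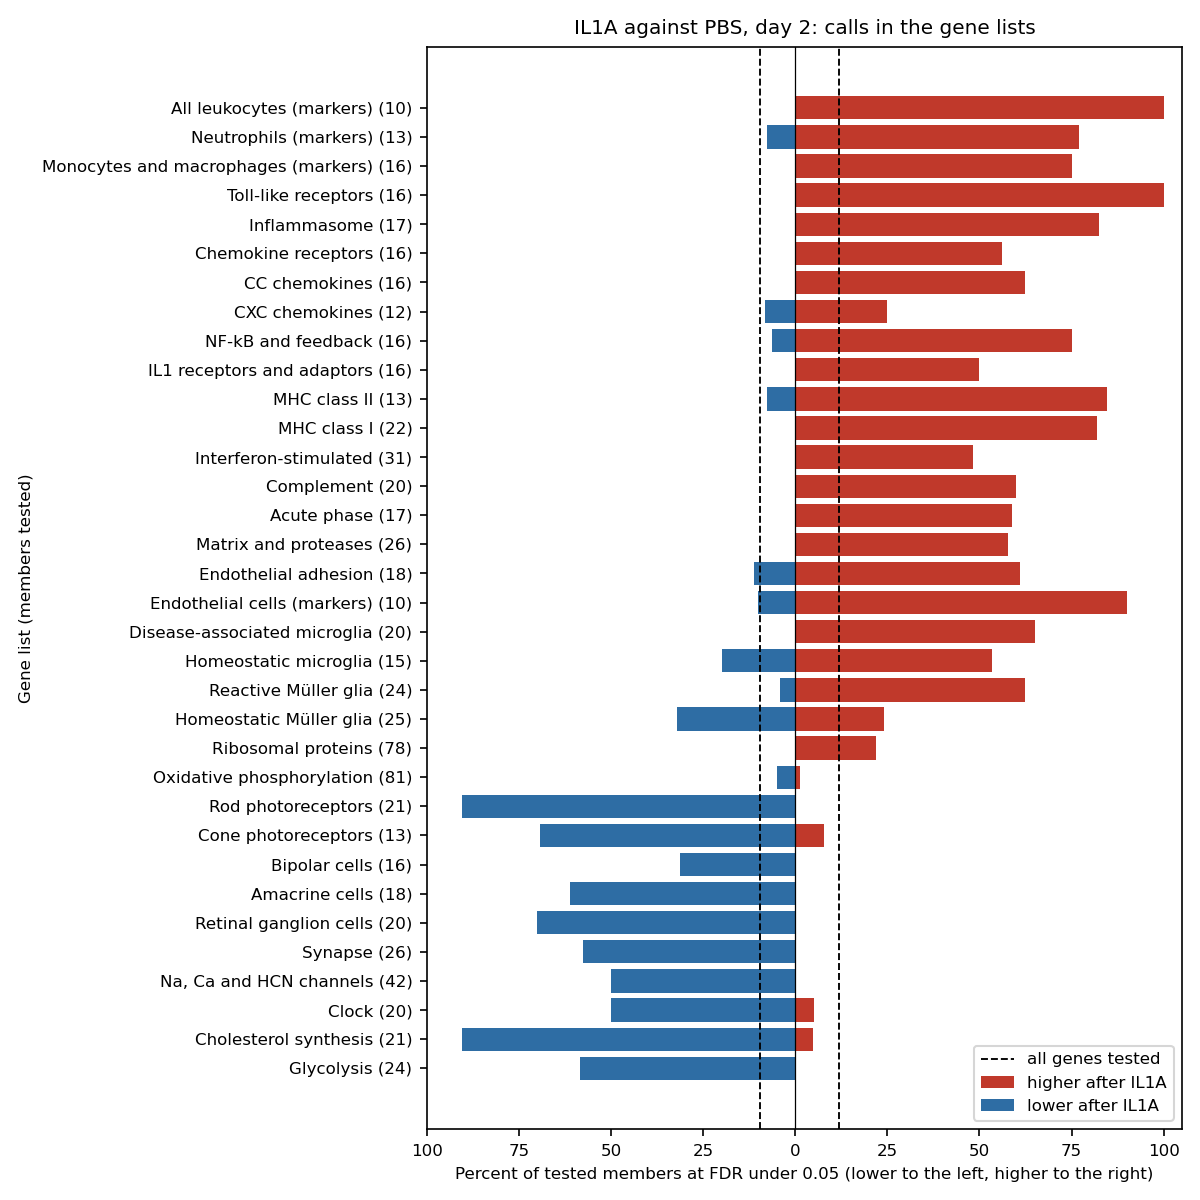
Percent of the tested members of each gene list that were higher (red, to the right) or lower (blue, to the left) in IL1A than in PBS retinas at an FDR below 0.05, with the number tested in parentheses. Dashed lines mark the 12% and 9.45% of all tested genes; the leukocyte and Toll-like receptor bars extend furthest to the right and the rod and cholesterol bars furthest to the left.

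Photoreceptor genes were lower in small steps. Of 21 rod phototransduction genes 19 fell and none rose (median -0.27), against 9.45% of all tested genes. Nrl, the rod fate factor, was at 747 to 1225 CPM (median 984) in PBS retinas and 521 to 913 CPM (median 768) in IL1A retinas (log2 fold change -0.41 ± 0.07, FDR 2.5e-05). Sag, rod arrestin, was not called (log2 fold change -0.03 ± 0.07, FDR 0.85). The higher IL1A retinas overlapped the lower PBS retinas in Nrl, and the IL1A eye was the lower in 6 of the 7 pairs. Without replicate 8, in which the rod genes were lowest, 10 were lower (median -0.18), and in the 7 pairs 1 was (median -0.28).

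Cone genes were lower in 9 of 13 and higher in 1 (median -0.26). Arr3, cone arrestin, was at 106 to 308 CPM (median 190.3) in PBS retinas and 36.7 to 120.2 CPM (median 70.4) in IL1A retinas (log2 fold change -1.33 ± 0.17, FDR 6.9e-09), the largest change in the list. Opn1sw, the short-wavelength opsin, was at 261 to 428 CPM (median 358) in PBS retinas and 84.2 to 321 CPM (median 259.8) in IL1A retinas (log2 fold change -0.63 ± 0.19, FDR 0.010). Opn1mw, the medium-wavelength opsin, was at 64.6 to 133 CPM (median 105.4) in PBS retinas and 38.6 to 92.8 CPM (median 78.6) in IL1A retinas (log2 fold change -0.50 ± 0.11, FDR 6.3e-04). Gnb3, a G protein subunit of cones and ON bipolar cells, was the gene that rose, at 334 to 688 CPM (median 482) in PBS retinas and 585 to 849 CPM (median 688) in IL1A retinas (log2 fold change 0.48 ± 0.08, FDR 7.0e-06). The fit of the 7 pairs gave 2 lower and 0 higher. Opn1sw, Opn1mw and Gnb3 missed the threshold in the 7 pairs alone (FDR 0.053 to 0.16). Opn1sw fell short of the threshold without IL1A replicate 8.

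Genes of inner retinal neurons mostly changed by the same small size. Of 20 retinal ganglion cell genes 14 were lower and 0 higher (median -0.20), with 2 lower in the 7 pairs (median -0.26). Pou4f2, which specifies ganglion cells, was at 7.58 to 12.2 CPM (median 10.1) in PBS retinas and 4.6 to 9.9 CPM (median 7.99) in IL1A retinas (log2 fold change -0.39 ± 0.08, FDR 9.1e-05). Chrna6, a nicotinic receptor subunit of these cells, was at 66.3 to 108 CPM (median 87.6) in PBS retinas and 35 to 85.5 CPM (median 67.8) in IL1A retinas (log2 fold change -0.44 ± 0.08, FDR 3.8e-05). Rbpms, the marker used to count them, was at 28.2 to 35.8 CPM (median 31.3) in PBS retinas and 23.2 to 35 CPM (median 28.8) in IL1A retinas (log2 fold change -0.14 ± 0.04, FDR 0.0087). The groups overlapped in each. Summed over the list, ganglion cell genes ran from 1016 to 1392 CPM in PBS retinas and from 747.3 to 1214 CPM in IL1A retinas. Amacrine genes were lower in 11 of 18 (7 without replicate 8, 2 in the 7 pairs), the largest change being that of Penk, an opioid precursor. It was at 5.76 to 61.2 CPM (median 22.7) in PBS retinas and 5.4 to 18.7 CPM (median 8.17) in IL1A retinas (log2 fold change -1.2 ± 0.31, FDR 0.0026). Bipolar genes were lower in 5 of 16 (2 without replicate 8, 3 without replicate 1, 2 without replicate 7, 3 without the lens-rich retinas, 3 with no filter, 8 without the PBS partner eyes and 0 in the 7 pairs), and horizontal cell genes in 1 of 10 (2 with edgeR or DESeq2, without the PBS partner eyes or without replicate 7, 3 with sample quality weights and 0 in the 7 pairs) with 1 higher. The horizontal cell counts were near the 9.45% lower and 12% higher of all tested genes. Within the 7 pairs, no call was made for Pou4f2, Chrna6 and Rbpms (FDR 0.052 to 0.21). The call for Rbpms was lost without IL1A replicate 1.

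Synaptic and channel genes followed the genes of neurons. Synaptic vesicle and ribbon genes were lower in 15 of 26 (8 without replicate 8 and 1 in the 7 pairs), with Rims1, an active zone scaffold, at 85.8 to 115 CPM (median 99.2) in PBS retinas and 45.3 to 88.2 CPM (median 80.8) in IL1A retinas (log2 fold change -0.39 ± 0.06, FDR 1.8e-06). Sodium, calcium and HCN channel genes were lower in 21 of 42 (12 and 2), with Scn4a falling most among the sodium channels (log2 fold change -0.53 ± 0.11, FDR 2.1e-04). Potassium channel genes gave 19 lower and 5 higher of 69 (7 lower without replicate 8, 11 without replicate 1, and 0 lower and 3 higher in the 7 pairs), the higher ones including Kcnn4 (log2 fold change 1.14 ± 0.31, FDR 0.0044) and Kcnk6 (log2 fold change 0.89 ± 0.13, FDR 5.4e-07). Receptors of GABA, glycine and glutamate were lower in 14 and higher in 4 of 50 (9 lower without replicate 8, and 1 lower and 0 higher in the 7 pairs). Grm8 (log2 fold change -0.36 ± 0.05, FDR 3.9e-07) was among the lower and Grik1, a kainate receptor, among the higher (log2 fold change 0.20 ± 0.05, FDR 0.0031). Of the neurotrophic factors and receptors 5 of 19 fell and 1 rose (3 and 0 in the 7 pairs), Vegfa from a median of 153 to 122.8 CPM (log2 fold change -0.34 ± 0.06, FDR 6.5e-06), while Bdnf was at -0.03 (FDR 0.87). Dopamine and adenosine genes gave 1 lower of 14 (2 with sample quality weights and 0 in the 7 pairs). When the fit was limited to the 7 pairs, the call for Grik1 was lost (FDR 0.14).

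Axon injury genes were higher in 7 of 20 with none lower (2 in the 7 pairs). Sox11, a regeneration factor, rose from a median of 1.05 CPM in PBS retinas to 1.94 CPM in IL1A retinas (log2 fold change 0.71 ± 0.15, FDR 2.5e-04). Plin2, a lipid droplet protein, rose from a median of 9.01 CPM in PBS retinas to 16.5 CPM in IL1A retinas (log2 fold change 0.84 ± 0.14, FDR 2.0e-06), whereas Sprr1a (0.54, FDR 0.27) and Gap43 (-0.01, FDR 0.96), the usual marks of injured ganglion cell axons, were not called. BCL2 family genes were higher in 9 of 16 (6 without replicate 8, 5 in the 7 pairs). The pro-apoptotic Pmaip1, also called Noxa, was at 0.607 to 2.64 CPM (median 1.17) in PBS retinas and 1.64 to 6.64 CPM (median 4.04) in IL1A retinas (log2 fold change 1.75 ± 0.17, FDR 2.7e-12), and Bcl2l11, also called Bim, rose by 0.29 ± 0.05. The anti-apoptotic Mcl1 rose as well (log2 fold change 0.41 ± 0.06, FDR 8.2e-07), and Bcl2 (-0.17, FDR 0.055) and Bcl2l1 (-0.01, FDR 0.90) were not called. ATF4 targets gave 1 higher and 4 lower of 17 (1 lower without replicate 1, 3 or 4, without the pigment-rich PBS retinas or with no filter, 2 higher and 3 lower without replicate 7, and 0 and 0 in the 7 pairs). Endoplasmic reticulum chaperones gave 2 higher of 18, near the 12% of all tested genes. The count fell to 0 without replicate 1, 2 or 8, without the lens-rich retinas, without the PBS partner eyes, with edgeR, with no filter and in the 7 pairs. It fell to 1 with DESeq2, without the sex term, without the mouse block and without replicate 3, 5, 6, 7 or 9. The threshold was not reached in the 7 pairs by Sox11 (FDR 0.13).

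Of the metabolic lists, cholesterol synthesis moved most evenly. It was lower in 19 of 21 genes and higher in 1 (median -0.28), with 12 lower and 0 higher in the 7 pairs. Insig1, a sterol sensor, was at 71.6 to 126 CPM (median 90.5) in PBS retinas and 42.6 to 71.8 CPM (median 56.6) in IL1A retinas (log2 fold change -0.58 ± 0.08, FDR 1.9e-08). Hmgcs1, which makes the substrate of HMG-CoA reductase, was at 145 to 248 CPM (median 177) in PBS retinas and 112 to 177 CPM (median 131) in IL1A retinas (log2 fold change -0.40 ± 0.06, FDR 4.4e-07). The ranges overlapped, but in none of the 7 pairs was Hmgcs1 higher in the IL1A eye. Pmvk, the phosphomevalonate kinase gene, was the exception that rose (log2 fold change 0.21 ± 0.07, FDR 0.029). Glycolysis genes were lower in 14 of 24 (median -0.17), but in 4 without replicate 8, in 8 without replicate 1 and in 0 in the 7 pairs. The medians in those fits were -0.11, -0.16 and -0.18. Pfkp, a phosphofructokinase, had the smallest FDR of these and was at 563 to 894 CPM (median 713) in PBS retinas and 424 to 721 CPM (median 585) in IL1A retinas (log2 fold change -0.29 ± 0.06, FDR 2.7e-04). Oxidative phosphorylation subunits gave 1 higher and 4 lower of 81 (2 lower without replicate 8, 2 higher and 3 lower without the pigment-rich PBS retinas or the PBS partner eyes, 4 higher with sample quality weights, and 0 and 0 in the 7 pairs). Ribosomal protein genes gave 17 higher of 78 (8 without the lens-rich retinas, 11 without replicate 1, 2 or 9, 37 with sample quality weights and 2 in the 7 pairs). Clock genes were lower in 10 and higher in 1 of 20 (5 lower without replicate 8, 6 without the lens-rich retinas, without replicate 2 or 4 or with no filter, 0 in the 7 pairs), and proliferation genes higher in 10 of 24 (4 without replicate 2, 6 without replicate 4, without the PBS partner eyes, with DESeq2 or with no filter, 5 without replicate 8, 3 without the lens-rich retinas, 4 with edgeR and 2 in the 7 pairs), Mki67 at 2.26 to 22.3 CPM (median 4.83) in PBS retinas and 5.31 to 18.5 CPM (median 9.18) in IL1A retinas (log2 fold change 0.85 ± 0.25, FDR 0.011). Pmvk, Pfkp and Mki67 missed the threshold in the 7 pairs alone (FDR 0.054 to 0.69). Pmvk fell short of the threshold without IL1A replicate 1, 4 or 8, without the lens-rich retinas or without the pigment-rich PBS retinas. Mki67 lost the call with edgeR, with DESeq2 or without the PBS partner eyes.

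Genes of neighbouring tissue were also called, and their counts depended on the retinas kept. Pigment epithelium genes were lower in 3 of 12 (1 without replicate 1, 2 in the 7 pairs, and 5 without the lens-rich retinas, without replicate 2 or with sample quality weights). Ciliary body, iris and cornea genes were lower in 2 of 10 (1 without replicate 8 and 1 in the 7 pairs). Fibroblast genes gave 1 higher and 2 lower of 9, but 2 higher and 1 lower without the pigment-rich PBS retinas, 1 lower without replicate 1 or 8, and 0 higher and 1 lower in the 7 pairs. The pan-reactive, A1 and A2 astrocyte lists gave 10 of 13, 6 of 11 and 8 of 12 higher, and 0, 0 and 0 lower. Of them 5, 4 and 3 were higher in the 7 pairs. Cd14, among the higher A2 genes, was also counted as a monocyte marker.

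The 9 IL1A retinas differed in how far they moved. As a description, since the same retinas chose the genes, the genes called higher lay a median of 0.754 log2 units above the PBS mean in replicate 8, a female retina, and 0.168 in replicate 7, a male retina, with the others between 0.346 and 0.64. In replicate 7, 79.8% of those genes were above the PBS mean, against 94.6% to 99.5% in the other 8. The genes called lower lay a median of 0.463 below the PBS mean in replicate 8, where the next lowest retina was at -0.257. Replicate 8 had 35255428 reads and replicate 7 had 39993345.

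**Figure D5:**
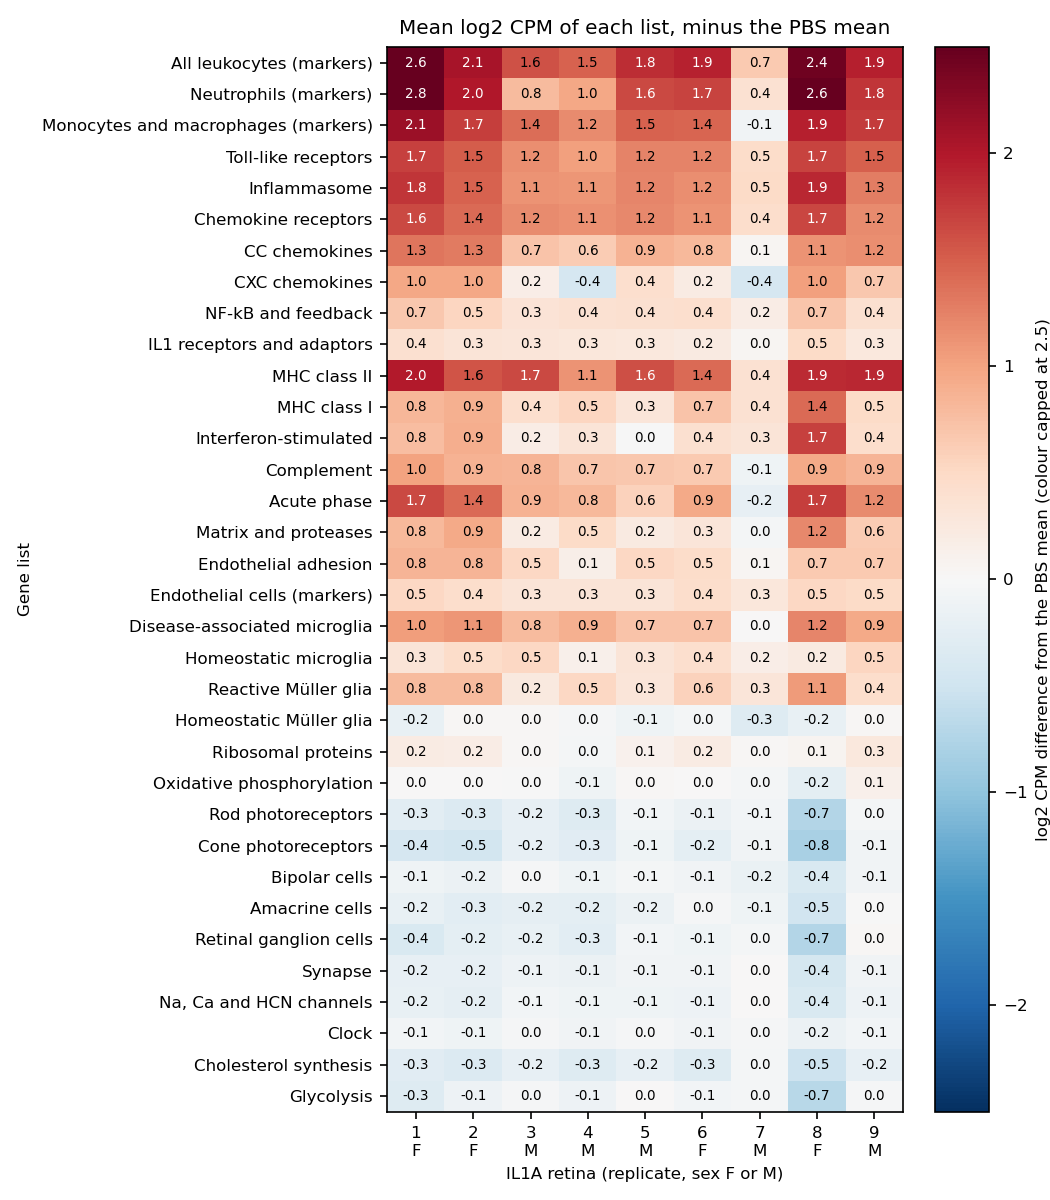
Mean log2 CPM of each gene list in each IL1A retina minus the mean of the 31 PBS retinas, with the replicate number and sex under each column. Red is above and blue below the PBS mean; replicate 7 is the palest column, and replicate 8 holds the deepest blue in the rod, ganglion cell and synapse lists.

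The IL1A effect was next compared between the sexes. No gene was called for a difference (limma, smallest FDR 0.30 of 19548 genes, 1523 at an unadjusted p below 0.05), edgeR gave none and DESeq2 gave 1. Fitted by sex, 4043 genes were called in the 4 female retinas and 900 in the 5 male retinas against PBS retinas of the same sex, and the strongest responder, replicate 8, was female. The difference in these counts was not tested as such. Pik3cd changed by 1.42 in female and 0.89 in male retinas, Hmox1 by 2.98 and 1.81, and Glul by -1.11 and -0.63 (FDR of the differences 0.51, 0.51 and 0.63).

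PBS retinas were also compared by whether the other eye was an IL1A retina in the data. Between the 7 PBS retinas whose partner received IL1A and the other 24, none of 19171 genes was called (limma, smallest FDR 0.9999, 627 at an unadjusted p below 0.05), nor by edgeR (643) or DESeq2 (636). Only 16 of those 24 had the other eye in the data, and what the other eye of the rest received was not known here. With the 7 set against those 16 alone, none of 19052 genes was called (limma, 398 at an unadjusted p below 0.05). Within the 7 pairs, Csf3r was higher in the IL1A eye of 7 mice by log2 differences of 1.03 to 4.94 (median 3.69), Ptprc in 7 by 1.19 to 3.61 (median 3.05), and Cd74 in 7 by 1.54 to 4.2 (median 2.57). Glul was lower in all 7, by -1.37 to -0.18 (median -0.83). Il1b was higher in 6, with differences from -0.43 to 4.88 (median 2.67).

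IL1A was then set against TNF alone, with no PBS retina in the contrast. At an FDR below 0.05, 5.39% of genes were higher and 3.68% lower after IL1A than after TNF, and these counts rested in part on replicate 8, without which 646 and 274 genes were called in place of 1054 and 720, and on replicate 1, without which they were 715 and 430. They rested as much on TNF replicate 6, whose leukocyte markers summed to 31.2 CPM, below all 31 PBS retinas, and without which 596 and 270 genes were called. Gad1-ps, Igf2, Cadps2, C5ar2 and Mmp9 had the smallest FDR. C5ar2 was at a median of 3.27 CPM after IL1A and 0.685 CPM after TNF (log2 difference 2.08 ± 0.28, FDR 3.5e-06), Mmp9 at 79.3 and 25.1 CPM (log2 difference 1.51 ± 0.21, FDR 7.4e-06) and Cadps2, a vesicle priming gene, at 16.7 and 9.56 CPM (log2 difference 0.77 ± 0.10, FDR 3.5e-06). Each of these was called with each IL1A retina or TNF replicate 6 left out in turn. Cxcr2 differed by the most among chemokine receptors (log2 difference 4.0 ± 0.80, FDR 6.8e-04, and 2.93 without TNF replicate 6). Neutrophil markers were higher after IL1A in 7 of 13 and lower in 1 (5 and 1 without TNF replicate 6). Ccr2 did not pass the threshold (log2 difference 1.46 ± 0.56, FDR 0.093), its medians being 37.4 and 26.5 CPM. The difference in Ccr2 was 0.45 without TNF replicate 6 (FDR 0.497), 0.61 with edgeR (FDR 0.489) and 1.63 without IL1A replicate 7, where it passed (FDR 0.0478). Of 13 MHC class II genes 1 was higher and 1 lower (0 and 0 without TNF replicate 6, and 2 higher without IL1A replicate 4, 6, 7 or 9). Reactive Müller genes were higher in 13 of 24 (11 without TNF replicate 6), Toll-like receptor genes in 9 of 16 (2, and 6 without IL1A replicate 8) and CC chemokines in 9 of 16 (4, and 5 without IL1A replicate 8), while rod genes were lower in 10 of 21 (6, and 5 without IL1A replicate 8). Of the CC chemokines 1 was lower, also without TNF replicate 6 or without IL1A replicate 8.

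Against the retinas given both cytokines, IL1A alone differed in both directions: 5.39% of genes were called at a higher level with IL1A+TNF and 4.68% at a lower level. The smallest FDR belonged to Slain2, Hmox1, Zcchc2, Hap1 and Ankfy1. Of these Hmox1 was at a median of 143 CPM after IL1A+TNF and 39.1 CPM after IL1A (log2 difference 1.68 ± 0.22, FDR 2.5e-06), Slain2, a microtubule gene, differed by 0.34 (FDR 2.5e-06), Zcchc2 by 0.35, Hap1 by 0.60 and Ankfy1 by 0.49. Of 31 interferon-stimulated genes 23 were higher in the combination, as were 9 of 15 interferon-gamma induced genes and 15 of 22 MHC class I genes. MHC class II genes gave 0 higher and 0 lower of 13, pan-leukocyte markers 1 and 0 of 10 (2 higher without IL1A replicate 1 or 8 and 0 without replicate 7), and chemokine receptors 0 and 0 of 16. Rod genes were lower still in 16 of 21, cone genes in 10 of 13, cholesterol genes in 13 of 21 (8 without IL1A replicate 7) and glycolysis genes in 16 of 24. Ganglion cell genes were lower in 3 of 20 (1 to 4 with each IL1A retina left out in turn). Siglech (log2 difference -1.73 ± 0.28, FDR 4.3e-05) and Arr3 (log2 difference -1.0 ± 0.21, FDR 0.0012) were lower after IL1A+TNF than after IL1A.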

How the data were processed

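Retinal poly(A) RNA was sequenced as 150 base paired reads, aligned by the authors to mm10 with STAR (2.7.9a) and counted per gene with featureCounts (Subread 2.0.1). The strand setting was not given in the sources used here. The deposited values are whole read counts for 37315 genes, and 35449 gene IDs matched a symbol in GENCODE M21. Counts from the 58 WT day 2 batch 1 retinas (35 mice) were filtered (filterByExpr, minimum count 10), TMM-scaled and fitted with limma (3.58.1) voom on treatment and sex, with mouse as a random block (correlation 0.0515) as in the study's methods. Pairing came from the mouse ID, so both eyes of a mouse share its number. CPM are counts per 1000000 reads of the TMM-scaled total and are not per length, so levels were not compared between genes. On simulated counts of IL1A against PBS (19548 genes), 100 of 100 genes changed by a log2 of 1 and 92 of 100 changed by 0.5 were recovered, and 4% of the calls were of unchanged genes. The simulation used the spread of the PBS retinas, an equal change in every IL1A retina and no mouse effect. Only genes above 1 CPM were changed in it. These rates therefore need not hold for the data themselves.

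Named genes were, among genes at an FDR below 0.05 and an average of at least 1 CPM, the 10 higher and 10 lower of smallest FDR, the 5 of each direction with the largest change, the 5 of smallest FDR in each direct contrast, and members of 57 gene groups and 14 marker lists. The members and lists were chosen with earlier results of these data known, and no set test was run. Some genes were members of several lists and were counted in each. A few genes that fell under this rule are not reported here. Genes named for lack of overlap were chosen after their values were seen. Alternatives were other filters, scalings, sample weights, edgeR (4.0.16) and DESeq2 (1.42.0) tests, the 7 pairs, and retinas left out, in R (4.3.3). Retinas of other days, batches and genotypes were not used here.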

Additional observations from a re-analysis of the deposited data

Results flagged for a closer look

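In 34 of the 231 genes named above, 1 of the 9 IL1A retinas stood apart from the other 8 on the log2 CPM scale, its gap to the nearest retina divided by the whole range passing Dixon's critical value of 0.493. Chance alone passes it in about 1 of 20 such groups, and the genes are not independent of each other. All 34 belonged to replicates 7 and 8.

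Replicate 7, the weakest responder, was the lowest IL1A retina in 19 genes, most of them genes of myeloid cells. The ratios were those of C1qa (0.561), C1qb (0.658), C1qc (0.717), C3 (0.728), C3ar1 (0.562), Casp8 (0.573), Ccl6 (0.553), Ccr2 (0.614), Cd74 (0.495), Cd79b (0.598), Icam1 (0.553), Irak2 (0.597), Itgax (0.644), Kcnk6 (0.493), Ltf (0.544), Ripk3 (0.506), Tnfrsf1b (0.52), Unc93b1 (0.503) and Vcan (0.739). Among the complement genes C1qc was at 14.9 CPM, C3 at 36.3 CPM and C3ar1 at 7.85 CPM in replicate 7. Each of them remained called without that retina.

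Replicate 8, the strongest responder, was the lowest IL1A retina for Aqp4 (0.561), Car2 (0.704), Chrna6 (0.524), Cxcl14 (0.503), Gad1 (0.527), Hdc (0.587), Opn1mw (0.53), Opn1sw (0.626) and Rims1 (0.636). Most of these are genes of neurons or photoreceptors, with Opn1sw at 84.2 CPM, Rims1 at 45.3 CPM and Car2, a glial and neuronal carbonic anhydrase, at 179 CPM. It was the highest for Ankfy1 (0.55), H2-D1 (0.512), Hap1 (0.735), Il1rl1 (0.514), Ripk1 (0.503) and Tap1 (0.539), with H2-D1 at 403 CPM and Tap1 at 101 CPM.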

How the results depend on the processing

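Of 183 named genes called between IL1A and PBS, 136 of 4566 values under the alternatives lost the threshold and none reversed, and 4430 kept direction and call. Counted by gene, 66 of the 183 lost the threshold at least once, 64 of them in the 7 pairs. In the fits that left out 1 IL1A retina, 9 of them lost it. The smaller fit of 7 pairs, in which the replicate block was mouse as a fixed factor, called 1232 genes. Of the 4193 genes called with all retinas, 4086 had a value in that fit and 0 had the opposite sign. An FDR below 0.01 called 2674. The other alternatives called 3010 to 5296 genes. The mouse block itself mattered little: without it 4110 genes were called between IL1A and PBS. Leaving out each IL1A retina in turn gave 3010 (without replicate 8) to 4353 (without replicate 7) genes between IL1A and PBS, 1431 to 2652 between IL1A+TNF and IL1A, and, with TNF replicate 6 also left out by turn, 866 to 2172 between IL1A and TNF. The sex interaction gave 1 gene with no filter and 1 with DESeq2 in place of 0. The cause of these differences was not tested. The 7 pairs held fewer samples and fewer genes, and the part of either in the lower count was not tested. Median log2 fold changes in the 7 pairs were -0.28 for rod, -0.26 for ganglion cell and -0.15 for synaptic genes. With all retinas they were -0.27, -0.20 and -0.14. For CC chemokines the median was 0.74 in the 7 pairs and 1.25 with all retinas. No alternative turned the direction of a named call. The fits without the lens-rich retinas, the pigment-rich PBS retinas and TNF replicate 6 were chosen after seeing the data. Genes below about 1 CPM, such as Tnf and Ltb, rest on few reads, so their changes are the least precise here.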
